A study of Mus musculus with 11 samples.

Results

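The 10 genes followed here supply the methyl donor S-adenosylmethionine (SAM), remove its product, or write methyl marks on RNA outside the Mettl3 and Mettl14 complex. They were chosen by symbol: Mettl16, Mat2a, Mat2b, Ahcy, Ahcyl1, Ahcyl2, Mtr, Mettl5, Zcchc4 and Pcif1. Each matched 1 row of a count table of 53947 gene rows, and all 10 were among the 14133 genes with enough counts to test. The RNA came from aTC1-6, a glucagon-producing line of tumour-derived alpha cells from mouse pancreas. Cells were reverse transfected at a stated confluency of 70% and collected 72 h after knockdown, with 3 scramble control libraries, 4 libraries with METTL3 KD and 4 with METTL14 KD. The labels give 1 cell line, no genotype and no knockdown reagent, and do not say that the replicates were separate cultures, so a p-value here reflects the spread among these libraries alone, which may be technical.

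SAM is the methyl donor for RNA, DNA, histone and lipid methylation. Mat2a is the catalytic subunit and Mat2b the regulatory subunit of the enzyme that makes SAM from methionine and ATP. After a methyl group is handed on, S-adenosylhomocysteine is left, which inhibits methyltransferases. Ahcy splits it into adenosine and homocysteine, and Mtr, methionine synthase, turns homocysteine back into methionine with a folate methyl group and vitamin B12. Ahcyl1 and Ahcyl2 are relatives of Ahcy that are best known as regulators of the inositol trisphosphate receptor and of ion transporters. The remaining genes encode other writers of N6-methyladenosine (m6A) or of the cap-adjacent form of the mark. Mettl16 methylates the U6 spliceosomal RNA and hairpins in the Mat2a transcript; when SAM is scarce it stays on a hairpin and favours removal of a retained intron of Mat2a, which gives more Mat2a mRNA. Mettl5, stabilised by Trmt112, methylates the RNA of the small ribosomal subunit, Zcchc4 that of the large subunit, and Pcif1 an adenosine next to the mRNA cap.

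Because Mettl16 is known to act on hairpins of the Mat2a transcript, the sequences that match its recognition loop are shown first. Transcript Mat2a-201 of the GENCODE annotation used here (build GRCm38) holds 6 matches to TACAGANAA, the letters known for that loop, and all 6 lie in the 3' UTR. The capitals mark the match and the lower case letters are the 10 bases on either side, written 5' to 3' as DNA.
Site 1: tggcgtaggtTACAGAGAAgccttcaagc
Site 2: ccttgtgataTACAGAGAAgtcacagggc
Site 3: ctggtgtagcTACAGAGAAaccagcttcc
Site 4: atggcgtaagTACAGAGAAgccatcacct
Site 5: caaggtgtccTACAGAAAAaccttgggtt
Site 6: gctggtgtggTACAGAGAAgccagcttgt
On the minus strand, site 1 is at chr6:72434235-72434263, site 2 at chr6:72433451-72433479, site 3 at chr6:72433272-72433300, site 4 at chr6:72433157-72433185, site 5 at chr6:72433046-72433074 and site 6 at chr6:72432938-72432966. Site 1 begins 40 bases after the stop codon and the others between 824 and 1337 bases after it. Site 5 reads TACAGAAAA and the other 5 read TACAGAGAA. In each window the bases straight after the match can pair with bases before it, G with T included: 4 pairs at site 1, 9 at site 2, 5 at sites 3 and 4, and 6 at sites 5 and 6. Among 7418 other genes with a 3' UTR of at least the 1494 bases of this one, 5.68% held a match in the first 1494 bases, and the most in any gene was 2. Over whole 3' UTRs of 21660 other genes, the most was 4. The 3' UTRs of the other 9 members held no match. These letters describe the sequence and say nothing of how often a site is methylated, which was not measured here. The deposited counts are sums per gene, so spliced Mat2a mRNA and the form with the retained intron cannot be told apart.

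In the same annotation Mettl16 spans chr11:74770830-74828525, Zcchc4 chr5:52775409-52824665, Pcif1 chr2:164879304-164894454 and Ahcyl2 chr6:29768011-29912310, all on the plus strand. On the minus strand are Mat2a at chr6:72432799-72439558, Mat2b at chr11:40679314-40695203, Ahcy at chr2:155059310-155074497, Ahcyl1 at chr3:107663118-107696560, Mtr at chr13:12182712-12258113 and Mettl5 at chr2:69871198-69885615.

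The libraries were of similar depth, with totals from 19576632 to 22406527 counts, and the least-covered member, Mettl5, had at least 175 counts in every library. The targeted transcripts were low where the labels say so: Mettl3 was at 14.9 ± 1.02 CPM (counts scaled to library size, SD, n = 3) in scramble and 5.34 ± 0.449 CPM (SD, n = 4) in Mettl3 KD, and Mettl14 at 25.2 ± 1.70 CPM (SD, n = 3) in scramble and 14.7 ± 0.720 CPM (SD, n = 4) in Mettl14 KD. Of 10 alpha cell markers 9 were detected in every library, with Gcg in all and Gc at 0 in all. Scramble replicate 2 stood apart. It had the lowest total, and its summed level of 12 lung and blood markers was 141 CPM, against 2.92 to 7.28 CPM in the other 10 libraries, where 10 to 12 of the 12 had counts. Its summed level of the 10 alpha cell markers was the lowest, 35682 CPM, against 38698 to 45080 CPM in the others. It also differed over all tested genes. On the first principal component, the main axis of variation, it was at -38.1, with scramble replicates 1 and 3 at -10.2 and -12.6. The summed level of 7 beta cell markers was at most 1.79 CPM in any library, with Pdx1 at 0 in all; that of 4 delta and PP cell markers was at most 0.286 CPM, with Ppy at 0 in all; and that of 5 acinar and ductal markers was at most 5.25 CPM, with Prss2 and Amy2b at 0 in all. Among the scramble libraries this one had the lowest value for 7 members and the highest for Pcif1 and, by a small margin, Zcchc4, so called values are also given without it. Without it, none of the values of Mat2b, Ahcy, Ahcyl1 and Mettl5 against scramble passed either, with log2 fold changes from -0.21 for Mettl5 to 0.09 for Mat2b, both in Mettl14 KD, and adjusted p of 0.124 or more by edgeR. In such bulk RNA, fewer expressing cells and less RNA per cell cannot be told apart.

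Between genes, levels can be compared only per transcript length. Per kilobase of the longest coding transcript, the scramble order ran from Ahcy at 83.8 ± 5.35 CPM per kb (SD, n = 3) and Mat2a at 83.0 ± 5.18 through Ahcyl1 at 68.6 ± 0.744, Ahcyl2 at 21.4 ± 0.599, Mat2b at 12.5 ± 0.555, Pcif1 at 12.4 ± 0.354, Mettl5 at 9.83 ± 0.837 and Mtr at 6.18 ± 0.332 to Zcchc4 at 2.78 ± 0.0394 and Mettl16 at 2.30 ± 0.243. By this measure the SAM synthase subunit Mat2a and the hydrolase Ahcy were the highest, and the writers Zcchc4 and Mettl16 the lowest. The places of these 2 writers depend on the length used. Mettl16 has 2 coding transcripts, with a longest of 12584 and a median of 7328.5 bases, and Zcchc4 has 2, with 5743 and 4114 bases. Counts are sums per gene. If mainly the shorter transcript was present, their levels per kilobase would be higher and the low places may not hold. Ahcy and Mat2a differed by less than their SD, as did Mat2b and Pcif1. With the median length of the coding transcripts in place of the longest, Mat2a came before Ahcy (100 against 83.8 CPM per kb) and Mettl16 before Zcchc4 (3.96 against 3.88 CPM per kb), so these neighbours have no fixed order. The liver form of the synthase, Mat1a, had 15 counts in all 11 libraries together and was not tested.

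**Figure D1:**
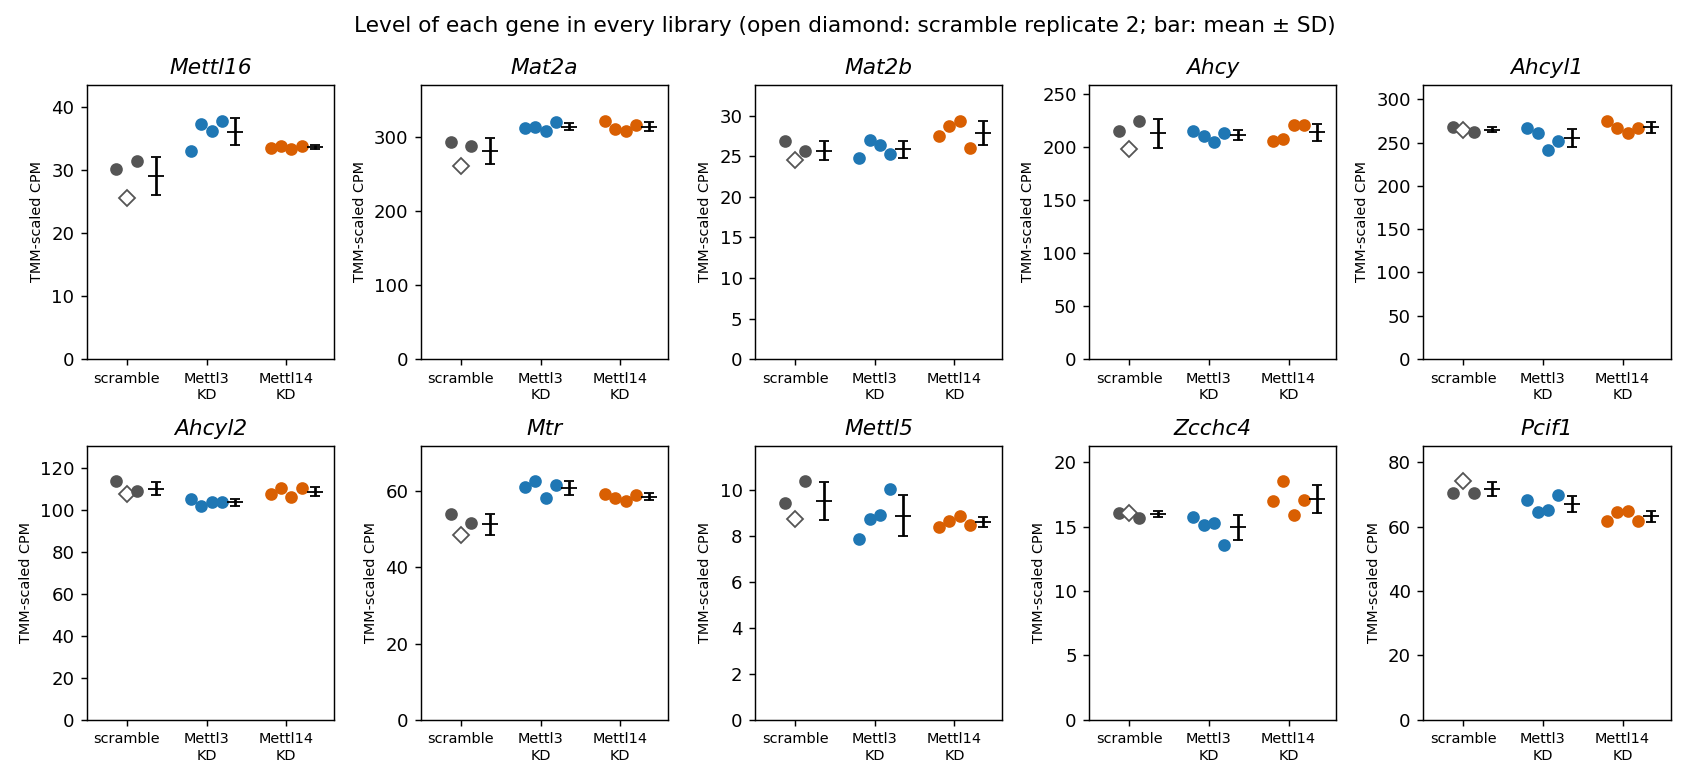
Level of each of the 10 genes in every library, as TMM-scaled CPM on a linear axis from 0; points are libraries, the open diamond is scramble replicate 2, and bars give the mean and SD of each group. Mettl16, Mat2a and Mtr lie higher in all knockdown libraries than in all scramble libraries, and Pcif1 lies lower.

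With all libraries, 3 of the 10 genes rose in both knockdowns, by 1.12-fold to 1.24-fold. They were the writer Mettl16, its target Mat2a and the methionine synthase Mtr. Leaving out scramble replicate 2 lowered the values of all 3 in both knockdowns. The Mettl16 call in Mettl14 KD was then lost, and it held in 16 of 19 alternatives. Pcif1 fell in Mettl14 KD, and Ahcyl2 fell slightly in Mettl3 KD. For Mettl3 KD against scramble, 3 members rose and 1 fell at an adjusted p under 0.05 in edgeR's test, and 6 missed it; over all genes tested, 31.3% passed, 15.5% higher and 15.8% lower. In Mettl14 KD, 3 members also rose, 1 fell and 6 did not pass, against 20.9% of all genes tested, of which 10.1% were higher and 10.8% lower. The median log2 fold change of the 10 members was -0.03 in Mettl3 KD and 0.06 in Mettl14 KD, with 0.00 over all genes in both. Groups that did not overlap were counted too: in Mettl3 KD 3 members were higher in every library than in any scramble library and 2 were lower, where 35.5% of all genes did not overlap (17.5% higher and 17.9% lower). In Mettl14 KD the counts were 3 and 1, against 28.9% of all genes (14.4% higher and 14.6% lower). Both comparisons use the same scramble libraries, so a gene that is off in those libraries moves in both; 7.43% of all genes tested were called higher in both and 8.5% lower in both.

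Mettl16, the writer that acts on Mat2a, was at 30.1, 25.6 and 31.4 CPM in scramble replicates 1 to 3, at 33.0, 37.3, 36.2 and 37.8 CPM in Mettl3 KD replicates 1 to 4, and at 33.5, 33.8, 33.3 and 33.8 CPM in the Mettl14 KD replicates. Every knockdown library lay above every scramble library, and scramble replicate 2 was the lowest of all. In Mettl3 KD the log2 fold change was 0.31 ± 0.06 (SE), 1.24-fold (adjusted p = 0.000507, edgeR). In Mettl14 KD it was 0.21 ± 0.06, 1.16-fold (adjusted p = 0.0180, edgeR). Without scramble replicate 2 the change in Mettl3 KD was 0.23 ± 0.05 and still passed (adjusted p = 0.000818), while that in Mettl14 KD was 0.13 ± 0.05 and did not (adjusted p = 0.0888). The direct comparison of the knockdowns gave a difference of 0.10, with a 95% interval from -0.01 to 0.22 (adjusted p = 0.295, edgeR), so a larger rise in Mettl3 KD was not established.

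Mat2a, the SAM synthase subunit with the sites printed above, was at 294, 261 and 288 CPM in scramble, at 313, 315, 309 and 321 CPM in Mettl3 KD, and at 323, 312, 308 and 317 CPM in Mettl14 KD. The knockdown libraries were all higher than the scramble libraries and overlapped each other. The log2 fold change was 0.16 ± 0.04 in Mettl3 KD (adjusted p = 0.00201, edgeR) and 0.16 ± 0.04 in Mettl14 KD (adjusted p = 0.00322, edgeR), 1.12-fold in both. Leaving out scramble replicate 2 lowered both values to 0.11 ± 0.03, and both still passed (adjusted p = 0.00322 and 0.00465, edgeR). Between the knockdowns the difference was 0.00, with a 95% interval from -0.07 to 0.07.

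Mat2b, which encodes the regulatory subunit, ranged from 24.6 to 26.9 CPM in scramble, from 24.8 to 27.0 CPM in Mettl3 KD and from 26.0 to 29.4 CPM in Mettl14 KD, with overlap between all groups. Its log2 fold change was 0.01 in Mettl3 KD (95% interval -0.11 to 0.12) and 0.12 in Mettl14 KD (95% interval 0.01 to 0.23), neither of which passed after adjustment (adjusted p = 0.935 and 0.130, edgeR). The ratio of Mat2a to Mat2b counts within a library does not depend on scaling. It was 10.9 ± 0.312 (SD, n = 3) in scramble, 12.2 ± 0.559 (n = 4) in Mettl3 KD and 11.3 ± 0.774 (n = 4) in Mettl14 KD. In Mettl3 KD the ratio was higher in all 4 libraries than in any scramble library, with a two-sided exact permutation p of 0.0286, the smallest this design allows, and 0.0858 after Benjamini-Hochberg adjustment over 6 such tests. In Mettl14 KD the groups overlapped (exact permutation p = 0.486, adjusted 0.583). Scramble replicate 2 had the lowest Mat2a to Mat2b ratio, 10.61, and the other scramble libraries, at 10.93 and 11.24, were also below every Mettl3 KD library. These ratios were chosen after the values had been seen.

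Ahcy, which removes S-adenosylhomocysteine, was at 216, 198 and 225 CPM in scramble, from 205 to 216 CPM in Mettl3 KD and from 206 to 221 CPM in Mettl14 KD. All groups overlapped, and the scramble range was the widest. Its log2 fold changes were -0.01 (95% interval -0.10 to 0.07) and 0.01 (95% interval -0.08 to 0.09), with adjusted p = 0.844 and 0.923 by edgeR. The ratio of Mat2a to Ahcy counts was 1.32 ± 0.0407 (SD, n = 3) in scramble, 1.49 ± 0.0282 (n = 4) in Mettl3 KD and 1.47 ± 0.0752 (n = 4) in Mettl14 KD. It was higher in every knockdown library than in every scramble library. The exact permutation p was 0.0286 for Mettl3 KD and 0.0571 for Mettl14 KD, or 0.0858 and 0.114 after adjustment over the 6 tests, and neither passed. The smallest p possible in each test was 0.0286. Passing after adjustment would have needed most of the 6 tests to reach it, so the miss cannot decide whether the ratios differ. The Mat2a to Ahcy ratio was also chosen after the values had been seen. With Ahcy nearly level, it largely repeats the Mat2a values and is no separate result.

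The Ahcy relatives were nearly level. Ahcyl1 ranged from 263 to 268 CPM in scramble, from 242 to 267 CPM in Mettl3 KD and from 261 to 275 CPM in Mettl14 KD, and passed in neither comparison (log2 fold changes -0.05 and 0.01, adjusted p = 0.255 and 0.811, edgeR). Ahcyl2 was at 114, 108 and 109 CPM in scramble, at 105, 102, 104 and 104 CPM in Mettl3 KD, and at 107, 110, 106 and 110 CPM in Mettl14 KD. All Mettl3 KD libraries were below all scramble libraries, by a small margin. The log2 fold change was -0.09 ± 0.03 in Mettl3 KD (adjusted p = 0.0419, edgeR) and -0.02 ± 0.03 in Mettl14 KD (adjusted p = 0.716, edgeR). The Ahcyl2 call was lost in 11 of 19 alternatives, among them DESeq2 (adjusted p = 0.0741) and leaving out scramble replicate 1 (-0.07, adjusted p = 0.174). It was also lost without scramble replicate 3, without any of Mettl3 KD replicates 2 to 4, and without Mettl14 KD replicate 1 or 4. It held without scramble replicate 2, at -0.10 ± 0.03 (adjusted p = 0.0167, edgeR). The difference between the knockdowns did not pass (-0.07, adjusted p = 0.174).

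Mtr, which closes the cycle by making methionine from homocysteine, was at 53.9, 48.4 and 51.6 CPM in scramble, at 61.2, 62.5, 58.2 and 61.5 CPM in Mettl3 KD, and at 59.3, 58.3, 57.4 and 59.0 CPM in Mettl14 KD. No knockdown library reached down to the scramble range. It rose by 0.25 ± 0.04 on the log2 scale in Mettl3 KD, 1.19-fold (adjusted p = 0.000118, edgeR), and by 0.19 ± 0.04 in Mettl14 KD, 1.14-fold (adjusted p = 0.00251, edgeR). Without scramble replicate 2 the values were 0.21 ± 0.04 and 0.15 ± 0.04 and both passed (adjusted p = 0.000181 and 0.00889, edgeR). The knockdowns differed by 0.06, with a 95% interval from -0.02 to 0.13.

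**Figure D2:**
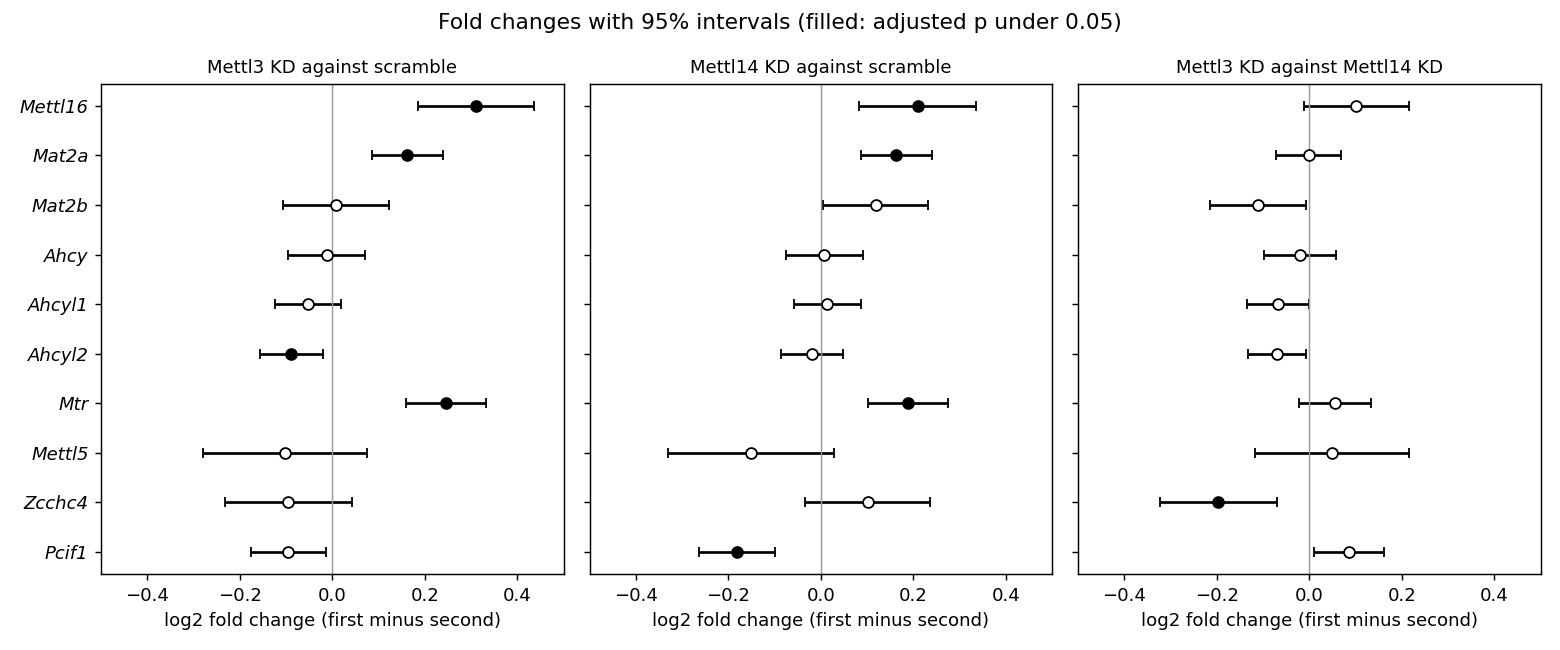
Log2 fold change of each gene (points) with its 95% interval (bars) in the 3 comparisons; filled points passed edgeR's test at an adjusted p under 0.05. Mettl16, Mat2a and Mtr are filled to the right of 0 in both comparisons with scramble, at 0.16 to 0.31, and Zcchc4 alone is filled between the knockdowns, at -0.20.

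Among the writers outside the Mettl3 complex, the cap-adjacent methyltransferase Pcif1 went the other way from Mettl16. It was at 70.4, 74.0 and 70.5 CPM in scramble, at 68.4, 64.6, 65.2 and 69.9 CPM in Mettl3 KD, and at 61.7, 64.5, 64.8 and 61.7 CPM in Mettl14 KD. Scramble libraries were highest in both comparisons, with no overlap. Pcif1 fell by 0.18 ± 0.04 on the log2 scale in Mettl14 KD (adjusted p = 0.00226, edgeR), and by 0.16 ± 0.04 without scramble replicate 2 (adjusted p = 0.00429, edgeR). In Mettl3 KD it was at -0.10 ± 0.04 and did not pass (adjusted p = 0.0671, edgeR), though it passed without Mettl3 KD replicate 4 (-0.12, adjusted p = 0.0414) and with a minimum count of 50 (-0.10, adjusted p = 0.0395). The difference between the knockdowns was 0.09, with a 95% interval from 0.01 to 0.16 (adjusted p = 0.165, edgeR). Exons of Zfp335, on the opposite strand, overlap those of Pcif1 in the annotation and had 60.4% of its counts. The sources used here do not say whether counting used strand, so reads of this pair may not be separated. Exons of Mat2a and Ahcyl2 are also overlapped on the opposite strand, by Particl and 4930528J11Rik. Neither has a row in the count table, so their share of reads cannot be seen.

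Neither rRNA writer passed against scramble. Zcchc4, for the large subunit, was at 16.1, 16.1 and 15.7 CPM in scramble, at 15.8, 15.1, 15.3 and 13.6 CPM in Mettl3 KD, and at 17.0, 18.5, 15.9 and 17.1 CPM in Mettl14 KD. The scramble mean lay between those of the knockdowns, whose libraries did not overlap each other; the scramble libraries overlapped both groups. Against scramble its log2 fold changes were -0.10 ± 0.07 and 0.10 ± 0.07 (adjusted p = 0.294 and 0.295, edgeR). Between the knockdowns it was lower in Mettl3 KD, by -0.20 ± 0.06 on the log2 scale (adjusted p = 0.0495, edgeR), the 1 member called there, against 8.1% of all genes tested (3.66% higher and 4.44% lower). Zcchc4 and Ahcyl2 were lower in every Mettl3 KD library than in any Mettl14 KD library, as 9.21% of all genes were, with 8.43% higher and 17.6% not overlapping in either direction. The Zcchc4 call was lost in 13 of 19 alternatives, with values from -0.15 to -0.23 over all of them; leaving out Mettl3 KD replicate 4 gave -0.15 (adjusted p = 0.164) and leaving out Mettl14 KD replicate 2 gave -0.16 (adjusted p = 0.159). It also missed the threshold without scramble replicate 1 or 3, any other Mettl3 KD replicate, or Mettl14 KD replicate 1 or 4, and held without scramble replicate 2 (-0.20, adjusted p = 0.0244).

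Mettl5, for the small subunit, was at 9.43, 8.75 and 10.4 CPM in scramble, from 7.88 to 10.02 CPM in Mettl3 KD and from 8.37 to 8.87 CPM in Mettl14 KD. The groups overlapped. Its log2 fold changes were -0.10 (95% interval -0.28 to 0.07) and -0.15 (95% interval -0.33 to 0.03), the widest intervals among the members, with adjusted p = 0.390 and 0.228 by edgeR. Ssb, on the opposite strand, overlaps it and had 43233 counts over all libraries, against 2159 for Mettl5. As for Pcif1, reads of this pair may not be separated. Trmt112, the partner that stabilises Mettl5, is counted with the rRNA methyltransferases below.

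The observed spread between libraries is given for each end of the range. These coefficients come from 3 or 4 libraries and include counting noise, which is larger for genes with fewer counts. They therefore do not rank the members by true spread. In scramble the coefficient of variation ran from 1.09% for Ahcyl1 and 1.42% for Zcchc4 to 8.52% for Mettl5 and 10.5% for Mettl16. In Mettl14 KD Mettl16 had the smallest value of any member, 0.786%. That is below what counting noise alone usually gives at its 705 to 748 counts per library, so it is no sign of tighter control. With scramble replicate 2 included, the scramble SD of Mat2a was 17.6 CPM, against 5.12 and 6.34 CPM in the knockdowns.

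**Figure D3:**
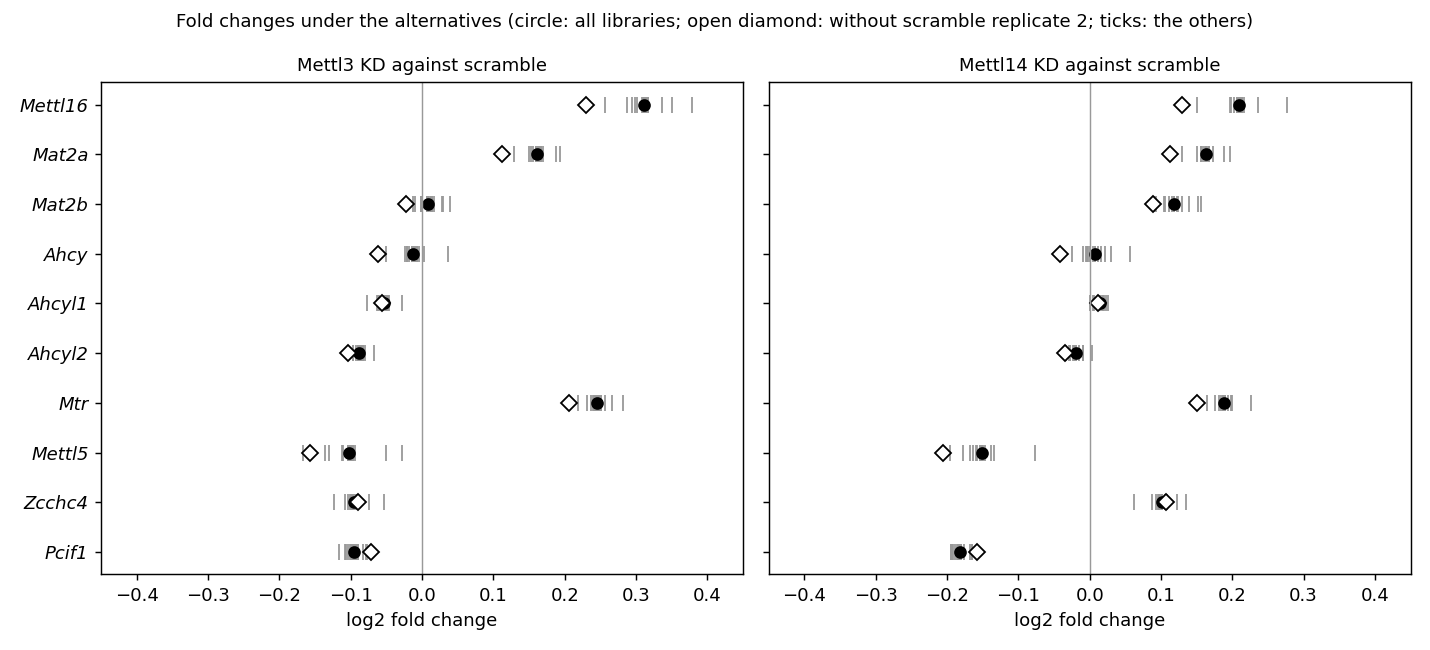
Log2 fold change of each gene against scramble under 19 alternatives (ticks, with the open diamond for the fit without scramble replicate 2) and with all libraries (filled circle). Without that library Mettl16 moved from 0.31 to 0.23 in Mettl3 KD and from 0.21 to 0.13 in Mettl14 KD, while Pcif1 stayed below 0 throughout.

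The 3 genes called higher in both knockdowns with all libraries are shown with their promoters, on GRCm38.p6. Each window runs from 250 bases before to 50 bases after the RefSeq start. Capitals mark matches, on either strand, to CCAAT (the box bound by NF-Y), TATAAA (the TATA box), CACGTG (the E-box of Myc and its relatives) and CCGGAAG (a core of ETS factors). No match overlapped another in these 3 windows, and the motifs were chosen after the letters had been seen.
Mettl16 promoter, chr11:74770613-74770912, plus strand: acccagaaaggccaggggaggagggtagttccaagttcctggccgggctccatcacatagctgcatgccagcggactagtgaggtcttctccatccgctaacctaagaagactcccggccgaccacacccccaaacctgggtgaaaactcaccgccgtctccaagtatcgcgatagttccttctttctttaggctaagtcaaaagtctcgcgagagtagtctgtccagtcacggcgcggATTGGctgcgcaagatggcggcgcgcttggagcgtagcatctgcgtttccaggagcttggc
Mat2a promoter, chr6:72439507-72439806, minus strand: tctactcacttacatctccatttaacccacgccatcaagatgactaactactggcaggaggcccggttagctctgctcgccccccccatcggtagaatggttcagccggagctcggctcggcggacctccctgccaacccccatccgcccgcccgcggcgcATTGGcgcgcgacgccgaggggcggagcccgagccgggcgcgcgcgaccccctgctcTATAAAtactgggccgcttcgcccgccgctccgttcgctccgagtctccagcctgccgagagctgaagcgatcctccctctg
Mtr promoter, chr13:12258064-12258363, minus strand: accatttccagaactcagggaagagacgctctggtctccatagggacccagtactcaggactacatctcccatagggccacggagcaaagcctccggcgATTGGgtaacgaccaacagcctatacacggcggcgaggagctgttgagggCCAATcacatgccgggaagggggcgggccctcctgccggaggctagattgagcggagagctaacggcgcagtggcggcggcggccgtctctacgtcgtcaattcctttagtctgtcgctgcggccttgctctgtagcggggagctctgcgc
Each of the 3 held CCAAT, at 1 place in Mettl16 and Mat2a and at 2 in Mtr; 37.4% of 32851 promoter windows of this length hold it. The match began 11 bases before the RefSeq start in Mettl16, 89 before it in Mat2a, and 151 and 101 before it in Mtr. For Mettl16 the GENCODE span given above begins further upstream, at chr11:74770830, so by that annotation the match lies inside the gene. The Mat2a window also held TATAAA, 32 bases before the start, which 13.6% of all windows hold. Of the 16 windows of the 10 members, 6 held CCAAT, 3 held TATAAA and 2 held CCGGAAG (8.86% of all windows), never more than 1 window per member for a motif. The TATAAA matches of Ahcyl1, in reverse, and Ahcyl2 began 241 and 248 bases before their starts, against 32 in Mat2a. The shares of all windows are to be set against these 16 windows, not against the 10 members. CACGTG, which 7.15% of all windows hold, was in none of the 16.

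The genes most like Mettl16 and Mat2a over the 11 libraries were sought by the root mean square distance between centred log2 CPM values, among 11267 other genes with a mean count of at least 50. Nearest to Mettl16 were Zc3h18 at a distance of 0.0443, Ahsa1 at 0.0462 and Actr8 at 0.0462. The mean level of Zc3h18 was 114 CPM in scramble, with 136 CPM under Mettl3 KD and 128 CPM under Mettl14 KD. Nearest to Mat2a were Arfgap2 at 0.0255, Gnl3 at 0.0267 and Atp5j at 0.0268. Of the other members, Mtr was nearest to both, at rank 170 for Mettl16 and 135 for Mat2a. The distances were taken over libraries that share groups and depth, and carry no test.

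Genes of the wider methionine cycle were called in both directions, at shares to be read against those of all genes. Of 24 listed genes of the cycle, of polyamine synthesis and of SAM use, 19 were tested; Mat1a, Bhmt, Bhmt2, Gnmt and Nnmt were too low. Of these, 5 were called higher and 3 lower in Mettl3 KD (median log2 fold change 0.03), where 15.5% of all genes were higher and 15.8% lower. In Mettl14 KD 2 rose and 3 fell (median 0.04), against 10.1% and 10.8% of all genes. Bmt2, also called Samtor, a SAM sensor that restrains mTORC1, was at 62.0 ± 2.96 CPM (SD, n = 3) in scramble, 46.8 ± 2.39 (n = 4) in Mettl3 KD and 42.9 ± 2.02 (n = 4) in Mettl14 KD. It fell by 0.40 ± 0.05 and by 0.53 ± 0.05 on the log2 scale (adjusted p = 2.01e-06 and 8.80e-08, edgeR), more than any of the 10 members moved. Sms, spermine synthase, which uses decarboxylated SAM, rose by 0.24 ± 0.05 in Mettl3 KD (adjusted p = 0.00112, edgeR) and by 0.15 ± 0.05 in Mettl14 KD (adjusted p = 0.0439, edgeR), where its libraries overlapped those of scramble. Without scramble replicate 2 Bmt2 was at -0.36 and -0.49 and still passed in both (adjusted p = 7.27e-08 and 1.79e-10, edgeR), while Sms was at 0.22 in Mettl3 KD (adjusted p = 0.00136) and at 0.13 in Mettl14 KD, where its call was lost (adjusted p = 0.0843). Without that library the counts were 5 higher and 4 lower in Mettl3 KD, and 1 higher and 4 lower in Mettl14 KD.

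Among the methyltransferases of ribosomal RNA, all calls in both knockdowns with all libraries were higher. Of 17 such genes, 10 rose in Mettl3 KD (median 0.14) and 7 rose in Mettl14 KD (median 0.12); the rest missed the threshold. Over all genes tested 15.5% and 10.1% were higher. Nop2, which makes 5-methylcytosine in large subunit RNA, was at 174 ± 4.80 CPM (SD, n = 3) in scramble, 208 ± 3.52 (n = 4) in Mettl3 KD and 198 ± 3.28 (n = 4) in Mettl14 KD, and rose by 0.26 ± 0.03 and 0.19 ± 0.03 on the log2 scale (adjusted p = 2.44e-06 and 0.000184, edgeR). Ftsj3, a ribose methyltransferase of ribosome assembly, rose by 0.30 ± 0.04 and 0.22 ± 0.04 (adjusted p = 3.73e-05 and 0.00155, edgeR). Nop2 and Ftsj3 still passed in both knockdowns without scramble replicate 2, at 0.28 and 0.21 for Nop2 and 0.24 and 0.15 for Ftsj3 (largest adjusted p = 0.000623, edgeR). Without that library, 9 rose and 2 fell in Mettl3 KD and 5 rose in Mettl14 KD; the lowest counts were 6 in Mettl3 KD, without scramble replicate 1, and 3 in Mettl14 KD, without Mettl14 KD replicate 2 or 4.

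Of 26 tRNA methyltransferase genes, 7 rose and 1 fell in Mettl3 KD (median 0.06) and 4 rose in Mettl14 KD (median 0.04). Over all genes tested 31.3% and 20.9% were called in either direction, with 15.5% and 10.1% higher. Trmt61a and Trmt6, the subunits of the 1-methyladenosine writer of tRNA, rose by 0.34 ± 0.05 and 0.22 ± 0.05 in Mettl3 KD and by 0.26 ± 0.05 and 0.15 ± 0.05 in Mettl14 KD, with adjusted p from 4.28e-05 to 0.0251 by edgeR. Mettl2, a 3-methylcytosine writer of tRNA, rose by 0.21 ± 0.06 and 0.22 ± 0.06 (adjusted p = 0.00806 and 0.00910, edgeR). Without scramble replicate 2 Trmt6 lost its call in Mettl14 KD (0.11, adjusted p = 0.0774, edgeR), while Trmt61a (0.28 and 0.20) and Mettl2 (0.18 and 0.19) passed in both knockdowns and Trmt6 (0.18) in Mettl3 KD. Without scramble replicate 2, 5 rose and 1 fell in Mettl3 KD and 4 rose in Mettl14 KD; 2 were called in Mettl14 KD without its replicate 2, and 5 in Mettl3 KD without scramble replicate 1. Of 9 tested genes for cap, mRNA and snRNA methylation, 1 rose in each knockdown, against 15.5% and 10.1% of all genes called higher. Nsun2, a 5-methylcytosine writer, rose by 0.14 ± 0.04 in Mettl3 KD (adjusted p = 0.00546, edgeR), was at 0.02 ± 0.04 in Mettl14 KD, and differed between the knockdowns by 0.12 ± 0.03 (adjusted p = 0.0271, edgeR). Its rise in Mettl3 KD was 0.09 without scramble replicate 2 (adjusted p = 0.0167, edgeR). Tgs1, which trimethylates the caps of small RNAs, rose by 0.14 ± 0.05 in Mettl14 KD (adjusted p = 0.0403, edgeR), a call lost in 12 of 19 alternatives, among them leaving out scramble replicate 2, scramble replicate 3, Mettl3 KD replicate 4 or any 1 of the Mettl14 KD libraries.

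**Figure D4:**
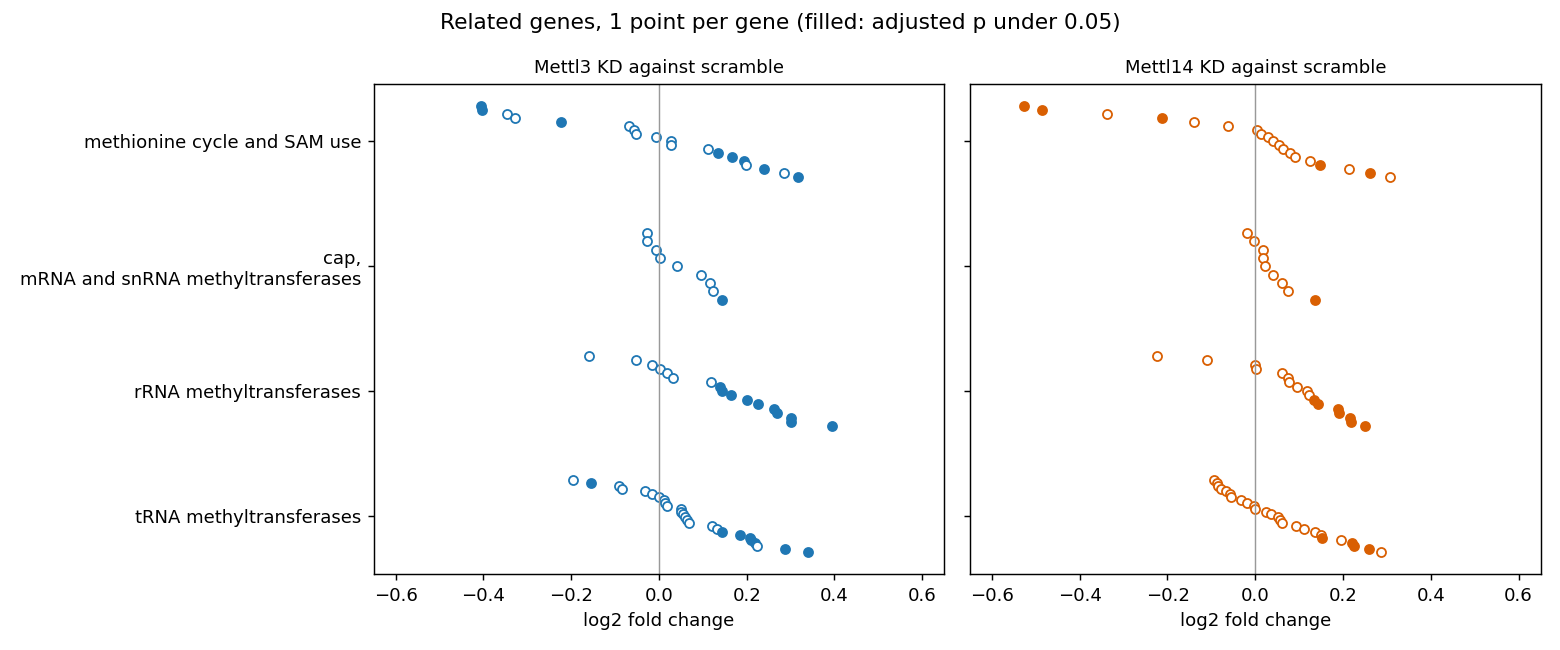
Log2 fold change of every tested gene of the 4 related lists in each knockdown against scramble, 1 point per gene ordered by value within its list; filled points passed edgeR's test at an adjusted p under 0.05. In the rRNA list all filled points lie above 0, 10 in Mettl3 KD and 7 in Mettl14 KD, while the methionine cycle list has filled points on both sides.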

How the data were processed

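Messenger RNA was sequenced as stranded libraries, per the labels' protocols. The authors deposited 1 table of estimated counts per gene, keyed by Ensembl identifier; kallisto is named in the submitters' processing notes, and its version, the genome build, the annotation and how transcripts were summed to genes were not stated there or in the labels. Of the values, 11.6% were not whole, and all were rounded before testing. Symbols matched 48651 of 53947 rows; rows without one held 0.518% of counts. Genes were kept by filterByExpr with a minimum count of 10. All 11 libraries entered 1 fit with a mean per group in edgeR 4.0.16 (R 4.3.3): TMM scaling, robust quasi-likelihood F-test, Benjamini-Hochberg adjustment over 14133 genes, with 8 residual degrees of freedom and a common coefficient of variation of 4.38%. CPM values are TMM-scaled; marker sums are not. Each SE is the absolute log2 fold change over the square root of F, and intervals use the fit's degrees of freedom. The fit was tested on simulated data. Any 2 libraries of a group differed beyond counting noise (chi-square per degree of freedom of 2.10 or more). The values reached 3.87 in the knockdown groups and ran from 2.93 to 14.9 in scramble.

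The alternatives were DESeq2 1.42.0, limma-voom (limma 3.58.1) with quality weights, other scalings and filters, only the groups compared, a replicate block, and leaving out each library. The members and lists were chosen with earlier results of these data known. Named were all members, the 2 called genes with the smallest adjusted p per list and knockdown, and the 3 genes nearest to Mettl16 and Mat2a. A gene that this rule names is not reported here. Sequences come from GENCODE M21 transcripts and RefSeq promoters, both on GRCm38; promoters matched all 10 members.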

Additional observations from a re-analysis of the deposited data

Results flagged for a closer look

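Zcchc4 was flagged because the effects of the knockdowns differed: the log2 fold change of Mettl3 KD minus that of Mettl14 KD was -0.196 (adjusted p = 0.0495, edgeR), and every Mettl3 KD library was below every Mettl14 KD library. No library lay far from the rest of its group in 24 groups of 4 examined, those of the 10 members, Mettl3 and Mettl14. Only the knockdown groups have 4 libraries, so scramble, with its replicate 2, was not examined. With 4 values such a check finds only extreme libraries.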

How the results depend on the processing

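Over 19 alternatives for each member and comparison, 541 results stayed on their side of the threshold, 27 lost the call, 2 gained it, and no called value changed sign. Mettl16 and Mat2a in Mettl3 KD, Mat2a and Pcif1 in Mettl14 KD, and Mtr in both passed in all 19. Mettl16 in Mettl14 KD passed in 16, with values from 0.13 to 0.28 and adjusted p from 0.000968 to 0.0888; it was lost without scramble replicate 2, with limma-voom (0.15) and with the replicate block (0.20, adjusted p = 0.0549). Of the members, 3 to 5 were called in Mettl3 KD and 3 to 4 in Mettl14 KD. Between the knockdowns 0 were called by DESeq2 (1 at an unadjusted p under 0.05) and 0 by edgeR with RLE size factors, library totals or the replicate block (5, 3 and 5 at an unadjusted p under 0.05); limma-voom called 1, and leaving out a library gave 0 to 1. Over all genes, 1145 were called between the knockdowns, 1868 with limma-voom, 2187 with only those groups in the fit, and 713 to 2125 when a library was left out, the most without scramble replicate 2. For rRNA, tRNA, cap and methionine cycle genes, the calls ranged over the alternatives from 6 to 11, 5 to 8, 1 to 2 and 7 to 9 in Mettl3 KD, and from 3 to 7, 2 to 4, 0 to 1 and 3 to 6 in Mettl14 KD. The replicate numbers are shared between groups, but same-numbered libraries did not deviate together (correlations across genes from -0.118 to 0.0674), so they were not treated as pairs; with the replicate block 3784 and 2335 genes were called against scramble and 839 between the knockdowns. With 175 counts or more per library, the intervals of Mettl5 still allow changes of up to -0.33 on the log2 scale.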
